A study of Homo sapiens with 6 samples.

Results

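The endoplasmic reticulum (ER) folding, translocation and ER-associated degradation (ERAD) genes are a list of 44 genes chosen by symbol and function, of 63677 genes in the deposited table. All 44 were found, as the sum of 380 transcripts of 1 reference gene ID each, and all 44 were among the 22651 genes with a mean of at least 1 TPM that were tested. TPM is a share of a library corrected for transcript length. Bulk total RNA from KMS27, an established human line of malignant plasma cells, had been depleted of ribosomal RNA and sequenced in 6 libraries. In 3 libraries the cells overexpressed HA-TAZ, the transcriptional coactivator TAZ (gene WWTR1) with an HA peptide tag, and the other 3 carry the treatment label wild type. The labels name no further agent, time or vector, and they do not say whether the HA-TAZ cells are 1 clone or whether the 3 libraries of a group came from separate cultures. The p-values therefore measure the spread between these libraries, which may be technical. The control columns carry a name that is in no label and were taken as wild type by elimination, and they are written here as control a, b and c.

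Secretory and membrane proteins enter the ER through the SEC61 channel, lose their signal peptide to the signal peptidase complex, and fold with the help of Hsp70 and Hsp90 type chaperones, lectin chaperones and disulfide isomerases. Proteins that do not fold are passed back through the HRD1 and derlin complexes to the cytosol for degradation by the proteasome, which is ERAD. The sensors IRE1 (gene ERN1), ATF6 and PERK (gene EIF2AK3) respond to unfolded protein in the ER and start the unfolded protein response, in which XBP1 and ATF6 bind to short promoter elements of many of these genes. Plasma cells, which secrete large amounts of antibody, carry a large ER and express this machinery at high levels.

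In the order of their numbers, the HA-TAZ libraries held 293, 306 and 293 TPM of WWTR1, and control a, b and c held 2.69, 2.22 and 1.69 TPM, as the labels say (exact two-sided permutation p = 0.1, the smallest possible with 3 against 3). Of 10 plasma cell markers, 8 had a mean of at least 1 TPM, with sums of 566 to 620.4 TPM in the HA-TAZ libraries and 661 to 760.3 TPM in controls. In scaled TPM these sums overlapped, at 636 to 668 and 625 to 649. Of the 8, SLAMF7 rose (log2 fold change 0.95, adjusted p = 0.0128) and CD38 fell (−0.61, adjusted p = 0.0226), with adjusted p-values of up to 0.0652 and 0.0896 with 1 library left out. The other lists held markers of earlier B cells, T and NK cells, myeloid cells, and a group of stromal, epithelial and erythroid cells. In each of these lists 1 marker had a mean of at least 1 TPM. CR2, of the earlier B cell list, had means of 8.44 TPM in the HA-TAZ libraries and 9.07 TPM in controls. CSF1R, of the myeloid list, had means of 1.5677 TPM in the HA-TAZ libraries and 1.7955 TPM in controls. The others were CD3G and COL1A1. ELANE and S100A8, also of the myeloid list, were listed at 0 in every library. The part of these marker levels in the results was not tested. The deposited TPM carry no read depth for a single library, and means in the authors' deposited table imply 52795484 estimated counts for a typical library. The values below are scaled TPM, which is TPM divided by a library factor (median of ratios), because the deposited TPM put the median of all tested genes at a log2 fold change of −0.27, and scaling put it at −0.03. The factors were 0.866 to 0.967 in the HA-TAZ libraries and 1.06 to 1.21 in controls. In bulk samples fewer cells with a transcript and less transcript per cell cannot be told apart.

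The elements through which the unfolded protein response acts can be read in the promoters of several of these genes, and they are shown here because they divide the list into genes with and without a recognisable element. Promoter windows of 300 bases, from 250 bases before to 50 after the transcription start, were taken from RefSeq (GRCh38.p14) and matched 40 of the 44 genes by symbol. PDIA3, SPCS1, DERL1 and DERL3 had no entry. Each window was searched on both strands for the ER stress response element (ERSE: CCAAT, any 9 bases, CCACG), for ERSE-II (ATTGG, any 1 base, CCACG) and for the unfolded protein response element (UPRE, TGACGTGG). In each line below, 4 bases are shown on either side, the sequence runs 5′ to 3′ on the strand of the gene, and capitals mark the fixed letters of the element, which read in reverse complement where CGTGG stands before ATTGG or CCAAT.
HSPA5 ERSE (chr9:125241387-125241413, minus strand): ttcaCCAATcggcggcctCCACGacgg
HSP90B1 ERSE (chr12:103930212-103930238, plus strand): ctgaCCAATcggaaggagCCACGcttc
HSP90B1 ERSE (chr12:103930317-103930343, plus strand): ggtgCGTGGtgcggcgcgATTGGtggg
CALR ERSE (chr19:12938380-12938406, plus strand): cacgCGTGGtcgaccatcATTGGtcgg
CANX ERSE (chr5:179698774-179698800, plus strand): ccggCCAATcttcacactCCACGaaga
PDIA6 ERSE (chr2:10812849-10812875, minus strand): cggaCCAATgagccgcagCCACGgctt
CRELD2 ERSE (chr22:49918550-49918576, plus strand): ctctCGTGGcgaactcggATTGGgcca
ERO1LB ERSE (chr1:236282179-236282205, minus strand): cccgCGTGGtcccgcctcATTGGccgc
HYOU1 ERSE-II (chr11:119057376-119057394, minus strand): gtgaCGTGGtCCAATccca
HYOU1 ERSE-II (chr11:119057270-119057288, minus strand): gggaCGTGGtCCAATgagt
HERPUD1 ERSE-II (chr16:56932021-56932039, plus strand): gccgATTGGgCCACGttgg
SDF2L1 ERSE-II (chr22:21642110-21642128, plus strand): gaagCGTGGaCCAATcaaa
VCP UPRE (chr9:35072803-35072818, minus strand): caatTGACGTGGcgtt

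The ERSE was in 7 of the 40 matched genes (17.5%), beside 25 of all 27305 genes in the table (0.0916%). ERSE-II was in 3 of the 40 (7.5%) and in 0.0696% of all genes. The UPRE was in 5 of the 40 (12.5%) and in 0.927% of all genes, and beside VCP these were SSR3, SSR4, SEC62 and HYOU1. In HYOU1 the UPRE overlaps the first of its ERSE-II matches by 5 bases. HSP90B1, which encodes the ER Hsp90 protein GRP94, holds a pair of ERSE matches in opposite orientation. HSPA5, which encodes the Hsp70 chaperone BiP, holds 1 match that ends 48 bases before the start. A match describes letters in a window and was not tested as a binding site in these cells.

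With HA-TAZ overexpressed in KMS27 cells, the chaperone gene HSP90B1 and the ERAD gene VCP rose to 1.24 and 1.25 times their control means. The sensor gene ERN1 and the oxidase gene ERO1LB fell to 0.789 and 0.653 times theirs. With scaled TPM, 2 of the 44 genes were higher and 2 were lower past the threshold of 0.05 on the adjusted p-value, and 40 did not pass it (limma, Benjamini-Hochberg adjustment over all 22651 genes). Of all tested genes 7.29% passed, 4.67% higher and 2.63% lower, so the count of 4 genes lies near the background. The median log2 fold change of the 44 genes was 0.05, with a range from −0.52 to 0.39, beside 0.06 for the 11666 protein-coding genes tested. At an unadjusted p under 0.05, a level that 30.7% of all genes reached, 13 of the 44 were higher and 3 were lower. By direction, 3759 of all 22651 genes were higher and 3200 lower at that level. Of the 11666 protein-coding genes, 3031 were higher and 1162 lower, so these too lay more often on the higher side. The deposited TPM gave another picture, with 0 genes higher, also at an unadjusted p under 0.05, and 7 lower (background 14.7%, 1.15% higher and 13.5% lower) and a median of −0.25. At that unadjusted level 23 of the 44 were lower, beside 653 higher and 8590 lower of all 22651 genes. Of the 11666 protein-coding genes, 413 were higher and 4443 lower. With protein-coding genes alone in the scaling and the test, 5 genes were higher and 5 lower (background 23.5%, 12.2% higher and 11.3% lower). Of the 44 genes, 1 passed with no filter on level (background 1.46%), 7 with a mean TPM of at least 5 (17.8%), 1 without the limma trend (3.35%), 5 without non-coding transcripts (9.81%) and 3 with factors from the 44 genes (6.03%).

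**Figure D1:**
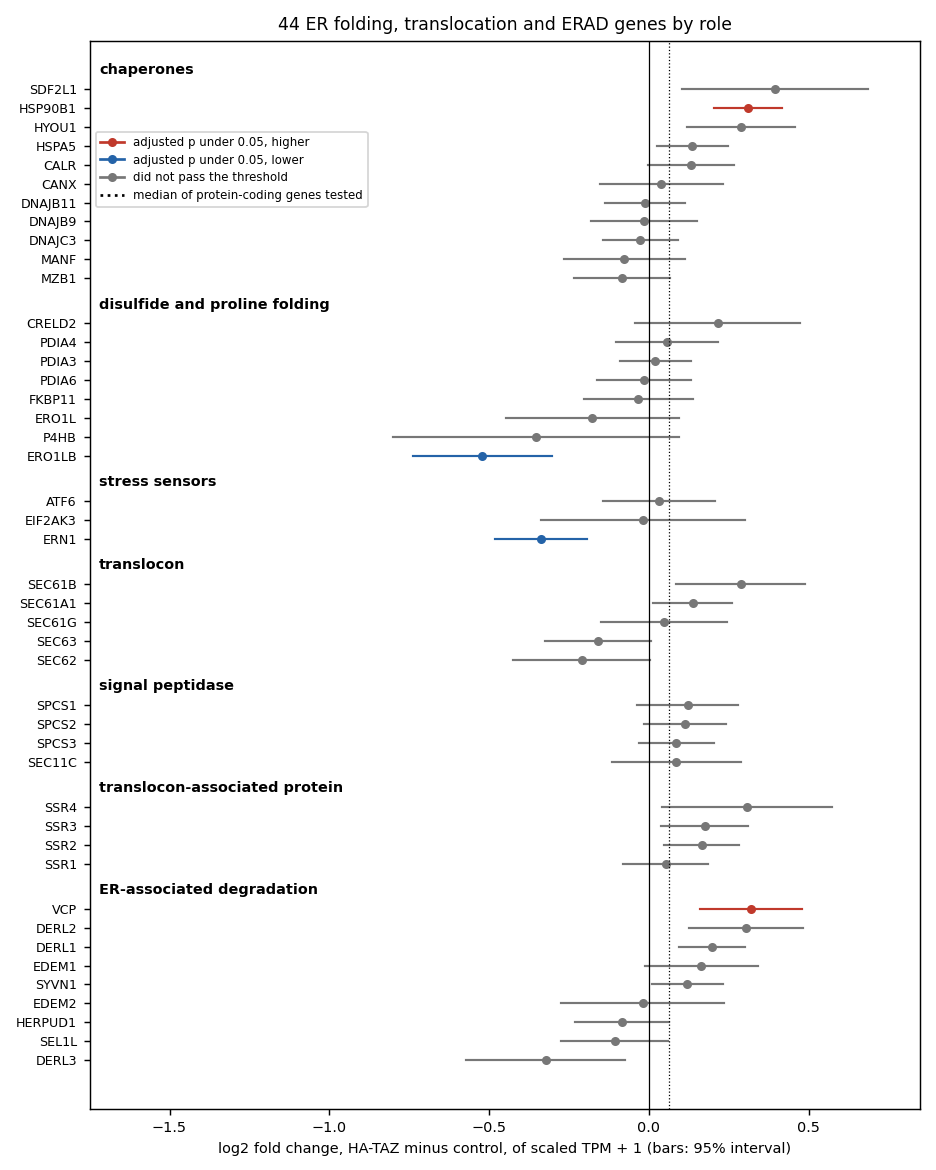
Log2 fold change, HA-TAZ minus control, of each of the 44 ER genes on the log2(scaled TPM + 1) scale, grouped by role, with 95% intervals as bars and the median of protein-coding genes as a dotted line. HSP90B1 (0.31) and VCP (0.32) are coloured as higher, ERN1 (−0.34) and ERO1LB (−0.52) as lower, and the other 40 genes did not pass the threshold.

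HSP90B1 was at 319, 307 and 303 scaled TPM in the HA-TAZ libraries and 248, 257 and 244 in controls. Every HA-TAZ library lay above every control library, and the mean was 1.24 times the control mean (log2 fold change 0.31, standard error 0.0434, adjusted p = 0.0239). GRP94, its product, folds a set of client proteins that includes integrins and Toll-like receptors. Most of the gene's TPM came from the full-length coding transcript ENST00000299767.5 (88.1%), for which the authors' deposited table gave a natural log effect of 0.256 (standard error 0.0402, q-value 5.89e-08). Before scaling the gene's log2 fold change was 0.01 (adjusted p = 0.9305), so the rise holds relative to the other genes of a library, and a change in its share of all transcripts was not detected.

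HSPA5 was at 331, 322 and 311 scaled TPM in the HA-TAZ libraries and 290.1, 301 and 286 in controls. Its groups did not overlap, and the difference of 0.14 (95% interval 0.03 to 0.25, adjusted p = 0.1101) did not pass the threshold. The ratio of HSP90B1 to HSPA5 within a library does not depend on any scaling. It was 0.966, 0.956 and 0.975 in the HA-TAZ libraries and 0.856, 0.856 and 0.856 in controls, with no overlap (exact two-sided permutation p = 0.1, Benjamini-Hochberg adjusted p = 0.117 over 7 such ratios, whose pairs were chosen after the values were seen).

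The other chaperones and cofactors did not pass the threshold. CALR and CANX encode the lectin chaperones calreticulin and calnexin and ranked below P4HB alone in level among the 44 genes. CALR was at 672, 661 and 628 scaled TPM in the HA-TAZ libraries and 603, 616 and 570.3 in controls, higher in each HA-TAZ library than in any control, with a difference of 0.13 (95% interval −0.0013 to 0.27, adjusted p = 0.166). CANX was at 592, 619 and 537 scaled TPM in the HA-TAZ libraries and 602, 569 and 529.8 in controls, with overlap and a difference of 0.04 (95% interval −0.15 to 0.23, adjusted p = 0.761). HYOU1, the nucleotide exchange factor of BiP, had a log2 fold change of 0.29 (adjusted p = 0.0594) and SDF2L1, which keeps BiP clients soluble, 0.39 (adjusted p = 0.0923). The BiP co-chaperones DNAJB9, DNAJB11 and DNAJC3 had values of −0.01, −0.01 and −0.03, and the ER-resident factor MANF −0.08. MZB1, a plasma cell cofactor of GRP94 in antibody assembly, was at 27.5, 24.99 and 28.6 scaled TPM in the HA-TAZ libraries and 28.8, 28.2 and 28.97 in controls, with overlap and a difference of −0.08 (95% interval −0.23 to 0.07, adjusted p = 0.389). Over the 11 chaperones and cofactors the median was 0.04.

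HYOU1, MANF and SSR4 each have a second gene ID under the same symbol. The copies of MANF and SSR4 carried the same values as the reference ID, so their reads may have been split. The second ID of HYOU1 was at 13.03, 22.9 and 11.2 TPM as deposited in the HA-TAZ libraries and 43.1, 37.9 and 18.2 TPM in controls. Its log2 fold change in scaled TPM was −0.71 (adjusted p = 0.224), beside 0.29 at the reference ID. The sum of both IDs gave 0.13 (adjusted p = 0.105), and the value of HYOU1 is uncertain for this reason. Of the 44 genes, 33 overlap another gene in GENCODE release 29, among them HSP90B1, ERO1LB, DERL3, HERPUD1 and P4HB, and the sources used here do not give the strand setting of the quantification.

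**Figure D2:**
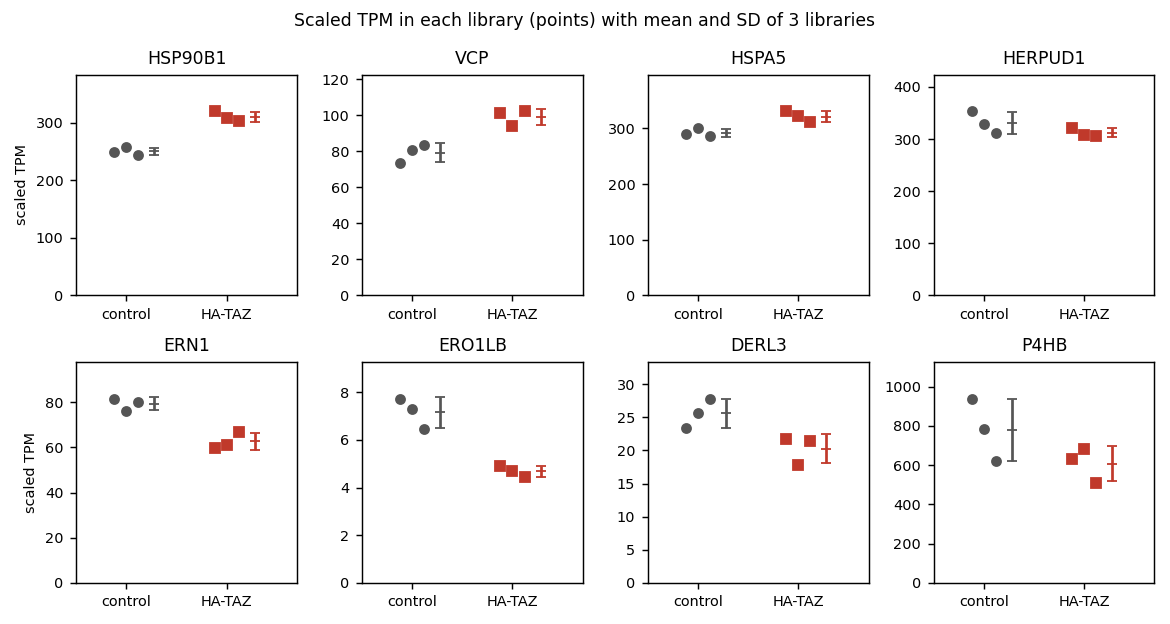
Scaled TPM (vertical axes from 0) of 8 ER genes in each control library (circles) and HA-TAZ library (squares), with the mean and SD of 3 libraries beside them. The groups stand apart in HSP90B1, VCP, HSPA5, ERN1, ERO1LB and DERL3, and they overlap in HERPUD1 and P4HB.

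Among the enzymes of disulfide formation and proline isomerisation, ERO1LB fell. This gene encodes ERO1-beta, an oxidase that recharges protein disulfide isomerases, and had the lowest level of the 44 genes. It was at 4.89, 4.69 and 4.46 scaled TPM in the HA-TAZ libraries and 7.74, 7.32 and 6.46 in controls, with every HA-TAZ library below every control library (log2 fold change −0.52, standard error 0.0884, adjusted p = 0.0345). The long coding transcript ENST00000354619.5 had a log2 fold change of −0.04, and the 605-base transcript ENST00000366589.1, which held 36.9% of the gene's TPM, had one of −0.73. Neither transcript passed its own test, and in the authors' deposited table their q-values were 0.954 and 0.128. The paralogue ERO1L, which encodes ERO1-alpha, had a log2 fold change of −0.18 (adjusted p = 0.324). The ratio of ERO1LB to ERO1L was 0.0872, 0.0795 and 0.0836 in the HA-TAZ libraries and 0.107, 0.112 and 0.119 in controls, without overlap (exact permutation p = 0.1, adjusted p = 0.117 over the 7 ratios).

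P4HB encodes protein disulfide isomerase and had the highest mean level of the 44 genes. It was at 632, 683 and 507 scaled TPM in the HA-TAZ libraries and 939, 782 and 623 in controls. Both groups spread widely and overlapped, and the interval of the difference ran from −0.80 to 0.09 around −0.35 (adjusted p = 0.243). A short transcript carried much of this spread. ENST00000570907.1, of 353 bases in GENCODE release 29, was at 200.3, 282 and 127 TPM in the HA-TAZ libraries and 687, 427 and 273 TPM in controls, and took 46.3% of the gene's TPM. The full-length coding transcript ENST00000331483.4 was at 146, 138 and 165 TPM in the HA-TAZ libraries and 91.3, 128 and 151 TPM in controls. These TPM are as deposited. In the limma fit of scaled TPM, its log2 fold change was 0.60 beside −0.86 for the short one (transcript adjusted p = 0.199 and 0.217). The other isomerases PDIA3, PDIA4 and PDIA6 had log2 fold changes of 0.02, 0.06 and −0.01, the isomerase-like CRELD2 0.22 and the prolyl isomerase FKBP11 −0.03. None of these passed the threshold, and the median of the 8 enzymes was −0.02.

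**Figure D3:**
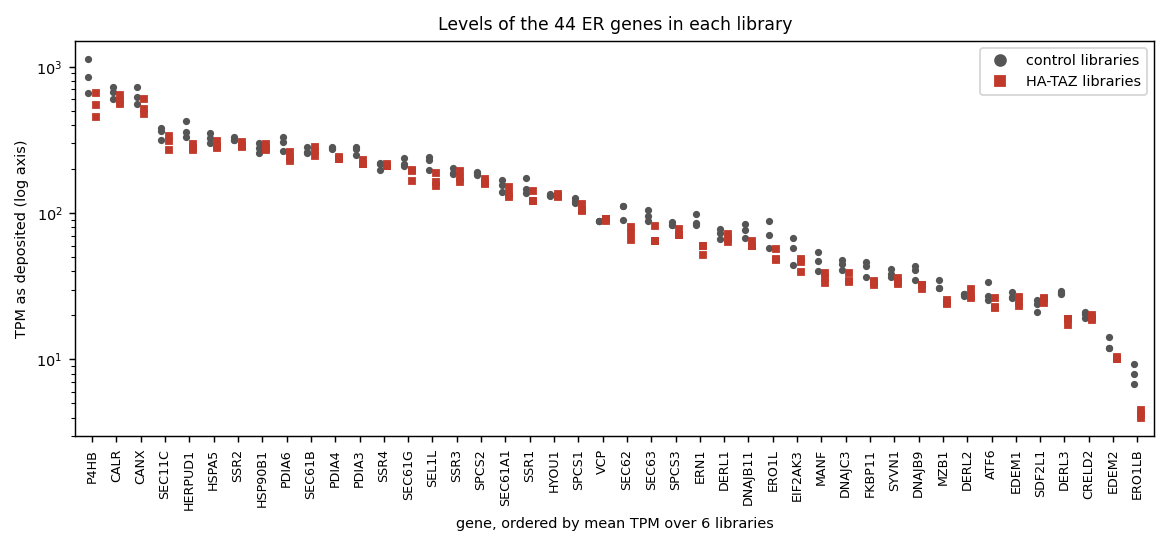
TPM as deposited (log axis) of the 44 ER genes in each control library (circles) and HA-TAZ library (squares), ordered by the mean over 6 libraries. The means run from 718 TPM for P4HB to 6.15 TPM for ERO1LB, and in 24 genes every control library lies above every HA-TAZ library on this scale.

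Of the 3 stress sensors, ERN1 fell. ERN1 encodes IRE1-alpha, the kinase and endoribonuclease that splices XBP1 mRNA. It was at 59.9, 61.1 and 66.96 scaled TPM in the HA-TAZ libraries and 81.6, 76.2 and 80.3 in controls. All HA-TAZ libraries lay below all controls, and the mean was 0.789 of the control mean (log2 fold change −0.34, standard error 0.05803, adjusted p = 0.0356). ATF6, which is cut in the Golgi to release a transcription factor, was at 26.4, 27.3 and 25.03 scaled TPM in the HA-TAZ libraries and 27.99, 24.97 and 24.1 in controls, with overlap and a difference of 0.03 (95% interval −0.14 to 0.21, adjusted p = 0.784). EIF2AK3, whose product PERK phosphorylates eIF2-alpha, was at 53.7, 50.3 and 44.2 scaled TPM in the HA-TAZ libraries and 56.2, 52.8 and 41.8 in controls, also with overlap and a difference of −0.02 (95% interval −0.34 to 0.30, adjusted p = 0.9398). The fold change of ERN1 lies almost on the lower bound of this interval, and the ratio of ERN1 to EIF2AK3 overlapped between the groups (exact permutation p = 0.3). The ratio of ERN1 to ATF6 was 2.26, 2.24 and 2.67 in the HA-TAZ libraries and 2.91, 3.05 and 3.33 in controls, without overlap (exact permutation p = 0.1, adjusted p = 0.117 over the 7 ratios).

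Much of the ERN1 signal came from transcripts that are typed as non-coding (retained introns, processed transcripts and transcripts subject to nonsense-mediated decay in GENCODE release 29). They made up 62.8% of its coding and non-coding TPM. The non-coding sum was 38.1 scaled TPM in the HA-TAZ and 51.1 in the control mean, a log2 fold change of −0.41. The coding sum was 24.5 and 28.3, a log2 fold change of −0.20. With non-coding transcripts of coding genes left out, an alternative chosen after seeing the data, ERN1 still passed the threshold at a log2 fold change of −0.20 (adjusted p = 0.0449). VCP did not, at 0.43 (adjusted p = 0.0628), and the factors from the 44 genes also ended its call (0.26, adjusted p = 0.0663). The full-length transcript ENST00000433197.3 alone had an effect of −0.122 (standard error 0.0471, q-value 0.113) on the natural log scale in the authors' deposited table, which did not pass 0.05.

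With scaled TPM no gene of the SEC61 translocon or its partners passed the threshold. The channel subunits SEC61A1, SEC61B and SEC61G had log2 fold changes of 0.14, 0.29 and 0.05, and the accessory proteins SEC62 and SEC63 had −0.21 and −0.16. The groups of SEC62, SEC61A1 and SEC61B did not overlap. With protein-coding genes alone, SEC62 fell (log2 fold change −0.29, adjusted p = 0.0260), as did SEC63 (−0.23, adjusted p = 0.0335). With TPM as deposited SEC62 also fell (−0.51, adjusted p = 0.0438). Of the signal peptidase complex, the 4 genes among the 44 were slightly above 0, SEC11C at 0.09, SPCS1 at 0.12, SPCS2 at 0.11 and SPCS3 at 0.09, and all 4 were below 0 with TPM as deposited. A catalytic subunit outside the 44, SEC11A, was at −0.03 (adjusted p = 0.737). The translocon-associated protein complex, which assists the insertion of chains at the channel, had the highest median of the 7 role groups. Its 4 subunits had values of 0.05 for SSR1, 0.17 for SSR2, 0.17 for SSR3 and 0.31 for SSR4, a median of 0.17. On the deposited TPM 3 of the 4 were below 0.

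In the ERAD group, VCP rose. VCP encodes the ATPase p97, which pulls proteins out of the ER membrane, and was at 101, 93.8 and 102 scaled TPM in the HA-TAZ libraries and 73.4, 81.0 and 83.4 in controls. The HA-TAZ libraries lay above the controls without overlap (log2 fold change 0.32, standard error 0.0649, adjusted p = 0.0464). Its coding transcript ENST00000358901.6 had a natural log effect of 0.314 (standard error 0.0812, q-value 0.00453) in the authors' deposited table, and the retained-intron transcript ENST00000493886.1 one of 0.333 (standard error 0.0588, q-value 2.81e-06). The ratio of VCP to SEL1L, another ERAD gene, was 0.535, 0.486 and 0.5905 in the HA-TAZ libraries and 0.366, 0.383 and 0.448 in controls, without overlap (exact permutation p = 0.1, adjusted p = 0.117 over the 7 ratios). This pair too was chosen after the values were seen. With TPM as deposited the log2 fold change of VCP was 0.02 (adjusted p = 0.752).

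The 3 derlins, membrane proteins of the export channel, differed in sign. DERL1 and DERL2 had log2 fold changes of 0.20 (adjusted p = 0.0503) and 0.30 (adjusted p = 0.0596), both just outside the threshold. DERL3, the derlin typical of secretory cells, was at 21.7, 17.8 and 21.4 scaled TPM in the HA-TAZ libraries and 23.3, 25.6 and 27.8 in controls, lower in each HA-TAZ library than in any control, with a difference of −0.32 (95% interval −0.57 to −0.07, adjusted p = 0.0994). The ratio of DERL3 to DERL2 was 0.696, 0.566 and 0.722 in the HA-TAZ libraries and 1.04, 1.004 and 1.05 in controls, and the ratio of DERL3 to DERL1 was 0.298, 0.238 and 0.286 in the HA-TAZ libraries and 0.364, 0.383 and 0.445 in controls. Neither ratio overlapped between the groups (exact permutation p = 0.1 each, adjusted p = 0.117 over the 7 ratios).

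SEL1L and SYVN1, the adaptor and the ubiquitin ligase of the HRD1 complex, had log2 fold changes of −0.11 and 0.12, and the mannose-trimming factors EDEM1 and EDEM2 had 0.16 and −0.02. HERPUD1, which organises the HRD1 complex, was at 322, 309 and 305 scaled TPM in the HA-TAZ libraries and 353, 329 and 311 in controls, with overlap and a difference of −0.08 (95% interval −0.23 to 0.06, adjusted p = 0.3797). Its 19 transcripts held effects of opposite sign. The coding transcript ENST00000439977.2 was at 101, 99.3 and 104 TPM as deposited in the HA-TAZ libraries and 91.2, 87.4 and 90.7 TPM in controls. The authors' deposited table gave it a natural log effect of 0.346 (standard error 0.0512, q-value 5.63e-09), the smallest q-value of any transcript of the 44 genes. The scaling behind that effect is not given in the sources used here. The retained-intron transcripts ENST00000564678.1 and ENST00000569569.1 had effects of −0.295 (standard error 0.06603, q-value 5.88e-04) and −0.232 (standard error 0.0752, q-value 0.0398) in the same deposited table. Over the 9 ERAD genes the median was 0.12.

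Leaving out any 1 of the 6 libraries, with 5 libraries left, ended all 4 calls, while 115 to 433 of all 22651 genes passed (0.508% to 1.91%). The adjusted p-values then ran from 0.0594 to 0.101 for HSP90B1, from 0.06899 to 0.149 for VCP, from 0.0569 to 0.123 for ERN1 and from 0.0535 to 0.109 for ERO1LB, with the direction kept in each case. The log2 fold changes ran from 0.29 to 0.33, 0.27 to 0.36, −0.39 to −0.31 and −0.59 to −0.47 for the same genes in that order.

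Without regard to a test, the scaled TPM of the groups did not overlap for 18 genes that were higher in HA-TAZ and 4 that were lower, or 22 of the 44, beside 38.5% of all tested genes (20.2% higher and 18.3% lower). All tested genes include non-coding genes, and this share was not taken for protein-coding genes alone. On the deposited TPM, 0 genes were higher without overlap and 24 were lower, 54.5% of the 44 beside 48.0% of all genes (4.41% higher and 43.6% lower). In all, 26 of the 44 fold changes were above 0 after scaling, beside 7097 of 11666 protein-coding genes and 10567 of all 22651. With TPM as deposited 5 were above 0, beside 2031 of 11666 and 3783 of 22651. The log2 fold changes of HSP90B1 and VCP were above 0, and those of ERN1, ERO1LB and DERL3 below 0, under each of the 4 scalings in the plot of scalings. That of HSPA5 was −0.16 with TPM as deposited and above 0 under the others.

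**Figure D4:**
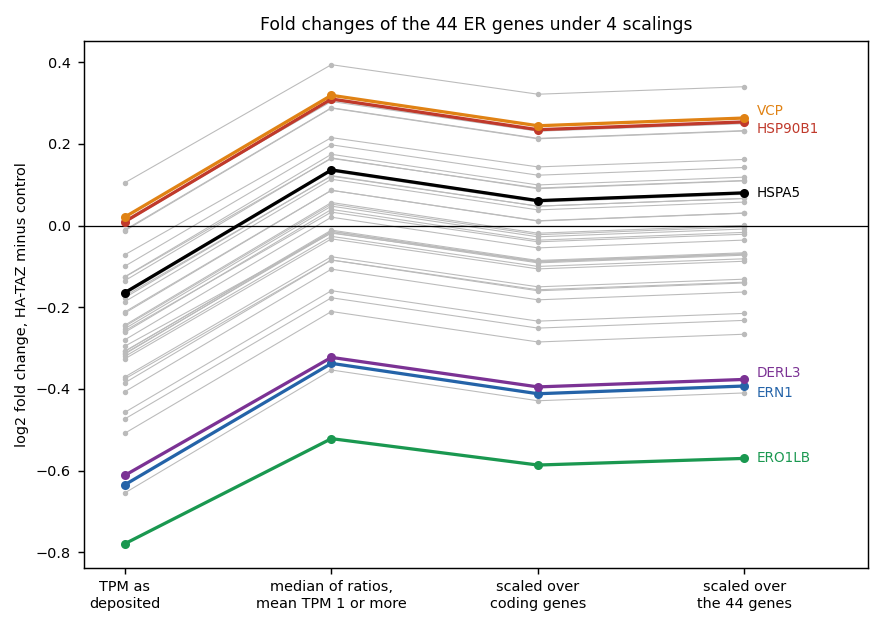
Log2 fold change of each of the 44 ER genes (grey lines, 6 genes coloured) with TPM as deposited, with the median-of-ratios scaling, with factors from protein-coding genes alone and with factors from the 44 genes themselves. VCP and HSP90B1 lie near the top, and ERN1, DERL3 and ERO1LB near the bottom. A scaling divides a library by the same factor for all genes. The lines therefore shift together, with nearly the same distances between them, by construction.

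Of all TPM, the 44 genes together took 0.644 ± 0.0474% with HA-TAZ and 0.771 ± 0.0737% in control libraries (SD, n = 3 each). As a share of the TPM of protein-coding genes they took 1.45 ± 0.0212% with HA-TAZ and 1.53 ± 0.0346% in control libraries (SD, n = 3 each), and the groups did not overlap (exact permutation p = 0.1). Without P4HB these shares were 1.33 ± 0.00518% with HA-TAZ and 1.36 ± 0.0164% in control libraries (SD, n = 3 each). The sum of scaled TPM overlapped between the groups (exact permutation p = 0.4).

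Total RNA without selection for poly(A) holds unspliced and partly spliced RNA, and the transcripts of the 44 genes could be divided by type. Coding transcripts made up 78.6 ± 0.274% of their TPM in the HA-TAZ libraries and 76.6 ± 0.397% in controls (SD, n = 3 each), without overlap (exact permutation p = 0.1). Non-coding transcripts made up 15.3 ± 0.288% and 17.3 ± 0.489%. In the 38 genes with at least 1 scaled TPM in both classes, the median log2 fold change was 0.13 for the coding and −0.17 for the non-coding sum. The coding sum had the higher fold change in 30 of these 38 (78.9%), beside 78.7% of 7257 protein-coding genes, a like share. Whether RNA quality or the amount of unspliced RNA differed between the groups was not tested.

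**Figure D5:**
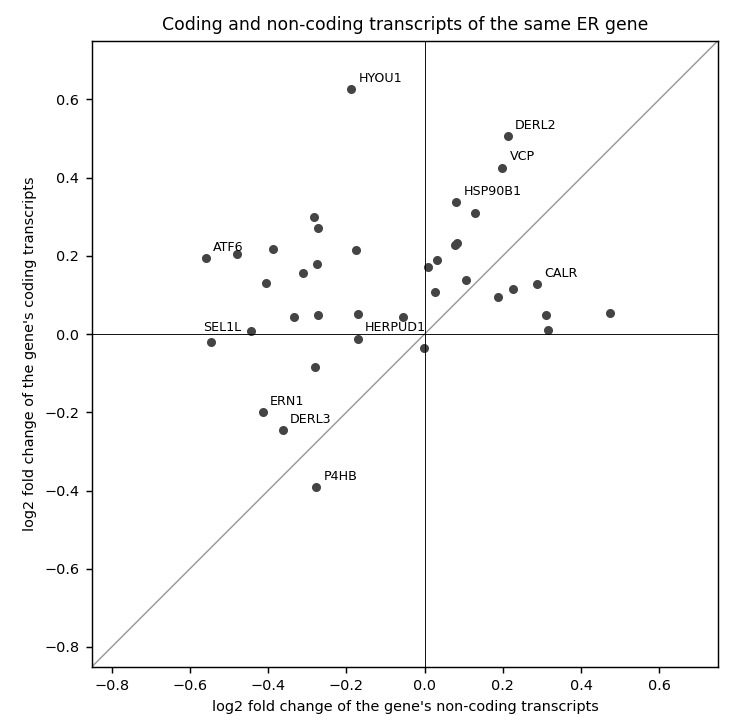
Log2 fold change of the summed coding transcripts (vertical axis) against that of the summed non-coding transcripts (horizontal axis) in 38 ER genes, 1 point a gene, with a line of equality. Points above the line, 30 of 38, had the higher fold change in coding transcripts.

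In the authors' deposited table, 333 transcripts of the 44 genes had statistics and 25 of them had a q-value under 0.05 (7.51%, beside 5.68% of all transcripts in that table). Of these, 19 had an effect above 0 and 6 below 0 (all transcripts 4.08% and 1.60%), and they belonged to 16 genes. Coding transcripts accounted for 18 of the 25. The most abundant transcript of a gene had an effect above 0 in 35 genes and below 0 in 9. Effects above 0 were thus 79.5% of the 44, beside 67.3% of the most abundant transcripts of all protein-coding genes tested. A q-value under 0.05 was reached by 12 of the 44 (27.3%, all above 0), beside 22.3% of those of all protein-coding genes, of which 87.9% were above 0. No transcript of ERN1 or ERO1LB had a q-value under 0.05 there. In the limma fit over transcripts, 0 of 266 tested transcripts of the 44 genes passed the threshold (0.534% of all transcripts passed), 73 had an unadjusted p under 0.05 (24.1% of all transcripts), and the smallest adjusted p was 0.0720, for the HSP90B1 transcript ENST00000299767.5.

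The genes with an ERSE or ERSE-II match spread over the whole range of fold changes. The 10 genes with an ERSE or ERSE-II match had a median log2 fold change of 0.13 and a range from −0.52 for ERO1LB to 0.39 for SDF2L1, with 7 above 0 and 3 below. The 30 matched genes without either had a median of 0.04 and a range from −0.35 to 0.32. Among these 30 are VCP, SSR4, SSR3 and SEC62, which hold a UPRE and had log2 fold changes of 0.32, 0.31, 0.17 and −0.21. HYOU1, which holds a UPRE as well as ERSE-II, is among the 10. Of the first set HSP90B1 rose and ERO1LB fell, and of the second VCP rose and ERN1 fell.

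Other genes of the pathway came from 7 lists of 118 genes chosen by function, of which 114 were tested. In all, 8 were higher and 3 lower past the threshold, with a median of 0.07, beside the 7.29% of all genes. The deposited TPM gave 2 higher and 21 lower, beside 1.15% and 13.5% of all genes. With 1 library left out, 1 to 4 of the 114 passed, beside 0.508% to 1.91% of all genes. In the list of stress response transcription and feedback, 2 of 12 rose and 1 fell. PPP1R15A, which encodes GADD34, the subunit that directs a phosphatase to eIF2-alpha, was at 47.1, 46.7 and 45.2 scaled TPM in the HA-TAZ libraries and 23.1, 25.8 and 24.2 in controls, a log2 fold change of 0.90 (adjusted p = 0.00268). ATF3, a transcription factor induced by stress, had one of 0.87 (adjusted p = 0.00899), and CREB3L2, an ER-bound transcription factor, one of −0.23 (adjusted p = 0.0313). XBP1 was at 153, 145 and 150.1 scaled TPM in the HA-TAZ libraries and 139, 145 and 145 in controls, with a log2 fold change of 0.06 (adjusted p = 0.354) that did not pass the threshold, while with TPM as deposited it fell (log2 fold change −0.24, adjusted p = 0.0489).

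The folding and degradation lists changed in few genes. PRKCSH, a subunit of glucosidase II, was the 1 of 10 genes of glycan trimming that rose (log2 fold change 0.30, adjusted p = 0.0394), and TXNDC5, a disulfide isomerase, the 1 of 19 other folding enzymes that fell (log2 fold change −0.33, adjusted p = 0.0322). In the further ERAD list of 26 genes, AUP1 (log2 fold change 0.43, adjusted p = 0.0313), STUB1 (log2 fold change 0.38, adjusted p = 0.0394) and OS9 (log2 fold change 0.27, adjusted p = 0.0474) rose, and the mannosidase EDEM3 fell (log2 fold change −0.28, adjusted p = 0.0367). ASNA1, which carries tail-anchored proteins to the ER, was the 1 of 11 further targeting genes that rose (log2 fold change 0.40, adjusted p = 0.0226), and SEC16A, a scaffold of ER exit sites, the 1 of 17 genes of COPII export (log2 fold change 0.23, adjusted p = 0.0423). None of the 19 tested genes of N-glycosylation passed the threshold, and 3 higher and 1 lower had an unadjusted p under 0.05. With TPM as deposited, OS9, SEC16A and PRKCSH were at −0.02, −0.06 and −0.0032. AUP1, STUB1 and ASNA1 were at 0.13, 0.09 and 0.10, and none of these 6 genes passed the threshold there. TXNDC5 (−0.63, adjusted p = 0.00989) and EDEM3 (−0.58, adjusted p = 0.0274) still passed it as lower. With 1 library left out, the adjusted p-values reached 0.0848 for ASNA1, 0.118 for AUP1, 0.132 for STUB1, 0.115 for TXNDC5 and 0.107 for EDEM3.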

How the data were processed

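RNA-seq of 6 KMS27 libraries was analysed, 3 HA-TAZ and 3 wild type. The authors deposited TPM per transcript for 215170 transcripts, and a table of their own Wald test with p-values and q-values, per the file headers. Its effects, their standard errors and the means of estimated counts are natural log values by the authors, taken as they stand. The submitters' processing notes name kallisto 0.46.0, sleuth 0.30.0 and the build GRCh37, and give no step or setting for them here.

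TPM was summed per gene ID, with the pairing of transcripts and symbols in the authors' deposited table. Scaling factors were medians of ratios over 21512 genes above 0 in every library. The 22651 genes that averaged 1 TPM or more entered a limma fit (version 3.58.1, R 4.3.3) of log2(scaled TPM + 1) with the trend option. Its two-sided p-values were adjusted by Benjamini-Hochberg over these genes, and 0.05 was the threshold. The pseudocount of 1 understates changes of low genes. Transcripts were fitted in the same way. The fit was tested on simulated data. For single values the test was an exact permutation test, two-sided. Transcript types came from GENCODE release 29, which typed 82.5% of gene IDs, and promoters from RefSeq. Columns of values left unused numbered 0.

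The 44 genes, the role groups, the other lists and the tests were chosen with earlier results of these data known, and the genes were named by this rule: every member has a fold change, and library values are given for the genes past the threshold, the 3 sensors, the 3 most abundant members, and HSPA5, DERL3, MZB1 and HERPUD1. DERL1, HYOU1 and DERL2 have their adjusted p-value shown as those nearest the threshold. The transcripts other than the most abundant of a gene were picked after their values were seen. Alternatives were the scaling, the pseudocount, the filter on level, the trend, leaving out each library and a stricter q-value.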

Additional observations from a re-analysis of the deposited data

How the results depend on the processing

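No paired analysis was possible because the control columns carry numbers that no label ties to a sample. The genes called numbered 1652, of which 1057 were higher, and moved to 3329 with the deposited TPM, of which 261 were higher, to 2746 in the fit of protein-coding genes, of which 1424 were higher, 691 with no filter on level, 758 without the limma trend and 115 to 433 with 1 library left out. The members called, 4 of 44, became 7 with TPM as deposited, 10 with protein-coding genes only, 1 with no filter on level (HSP90B1), 7 with a mean TPM of at least 5, 1 without trend (ERO1LB) and 0 with any library left out (limma, with 7 to 12 higher and 2 to 5 lower at an unadjusted p under 0.05). At that unadjusted level, 2645 to 3650 of all 22651 genes were higher and 2384 to 2892 lower with 1 library left out. Of the 11666 protein-coding genes, 2066 to 2845 were higher and 854 to 1098 lower. The members called remained 4 with the pseudocount of 0.1. With TPM as deposited the 7 genes that passed were SEC62, ERO1LB, DERL3, PDIA4, PDIA3, MZB1 and ERN1, all lower. With protein-coding genes only the 10 were HSP90B1, HYOU1, SDF2L1, DERL2 and VCP, higher, and ERO1LB, ERN1, SEC62, SEC63 and DERL3, lower. With a mean TPM of at least 5 the 7 were HSP90B1, VCP, DERL1, DERL2 and HYOU1, higher, and ERN1 and ERO1LB, lower. Without non-coding transcripts the 5 were HSP90B1, DERL1 and HYOU1, higher, and ERO1LB and ERN1, lower. The transcripts called, 307, became 120 with TPM as deposited, 108 with no filter, 1655 with a mean TPM of at least 5, 156 without trend and 12 to 91 with 1 library left out. The member transcripts called went from 0 to 11 with a mean TPM of at least 5, where 1655 of all transcripts passed. The numbers of transcripts tested at that filter are not given here, so the 11 cannot be set beside a share. The other ER lists went from 11 (7.29% of all genes passed) to 23 with TPM as deposited (14.7%) and 26 with protein-coding genes only (23.5%). They went to 4 with no filter (1.46%), 17 with a mean TPM of at least 5 (17.8%), 3 without trend (3.35%) and 1 to 4 with 1 library left out (0.508% to 1.91%). The authors' table went from 25 to 13 transcripts at a q-value under 0.01. The share of all transcripts at that cut is not given here, so the 13 cannot be set beside it. The members' median log2 fold change went from 0.05 to −0.25 with TPM as deposited, −0.025 with protein-coding genes only and 0.12 without non-coding transcripts. The cause of these shifts was not tested.

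Log2 fold changes changed sign with TPM as deposited for HSPA5 −0.16, HYOU1 −0.011, CALR −0.17, CANX −0.26, PDIA3 −0.28, PDIA4 −0.24, ATF6 −0.26, SEC61A1 −0.16, SEC61B −0.013, SEC61G −0.25, SEC11C −0.21, SPCS1 −0.18, SPCS2 −0.19, SPCS3 −0.21, SSR1 −0.25, SSR2 −0.13, SSR3 −0.13, DERL1 −0.10, EDEM1 −0.13, SYVN1 −0.17, CRELD2 −0.071, XBP1 −0.24, PRKCSH −0.0032, OS9 −0.021, SEC16A −0.062; with protein-coding genes only for CANX −0.036, PDIA3 −0.055, PDIA4 −0.019, ATF6 −0.040, SEC61G −0.028, SSR1 −0.022, XBP1 −0.013; with factors from the 44 genes for CANX −0.017, PDIA3 −0.036, ATF6 −0.021, SEC61G −0.0085, SSR1 −0.0034; and without non-coding transcripts for DNAJB9 0.16, DNAJB11 0.13, PDIA3 −0.052, ERO1L 0.0087, EIF2AK3 0.20, SEC63 0.049, MANF 0.045, FKBP11 0.22. With 1 library left out, values crossed 0 in DNAJB9 −0.062 to 0.024, DNAJB11 −0.054 to 0.013, DNAJC3 −0.048 to 0.0015, CANX −0.0084 to 0.097, PDIA4 −0.0018 to 0.088, PDIA6 −0.060 to 0.019, ATF6 −0.010 to 0.094, EIF2AK3 −0.14 to 0.068, SEC61G −0.034 to 0.11, EDEM2 −0.11 to 0.074, FKBP11 −0.094 to 0.010. The factors from the 44 genes, the leaving out of non-coding transcripts, and the summing of gene copies, which changed no call, were chosen after seeing the data. Depth per library is unknown, so no limit by depth can be given.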

Other observations

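Single transcripts of several ER genes differed in the authors' deposited table (transcripts picked after their values were seen). For SEC61A1, the pore of the translocon, the full-length transcript ENST00000243253.3 had a natural log effect of 0.408 (standard error 0.0871, q-value 2.55e-04), and the shorter ENST00000464451.1 one of −0.603 (standard error 0.335, q-value 0.372). DERL1 had 0.3004 (standard error 0.0488, q-value 2.16e-07) for ENST00000259512.4 and −0.507 (standard error 0.298, q-value 0.415) for ENST00000405944.3. In the authors' deposited table ATF6 had 0.161 (standard error 0.0466, q-value 0.0157) for its coding transcript ENST00000367942.3, and EIF2AK3 0.408 (standard error 0.130, q-value 0.0348) for ENST00000303236.3.

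CALR, the gene of calreticulin, held the lowest effect among the 25 transcripts with a q-value under 0.05. ENST00000586760.1, a short coding model, was at 5.88, 2.50 and 2.11 TPM in the HA-TAZ libraries and 113, 26.3 and 17.03 TPM in controls, while the main transcript ENST00000316448.5 was at 557, 614 and 535 TPM in the HA-TAZ libraries and 598, 621 and 564 TPM in controls. The short model had an effect of −2.24 (standard error 0.637, q-value 0.0128) in the authors' deposited table and the main one 0.1802 (standard error 0.0444, q-value 0.00247). The control values of the short model ranged widely, with control a the highest. The TPM given here are as deposited, while the scaling behind the authors' effects is not given in the sources used here. After scaling, the main transcript averaged 626 in the HA-TAZ libraries and 533 in controls.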
